A study of Mus musculus with 12 samples.

Results

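Replication-dependent histone genes code for the core histones H2A, H2B, H3 and H4 and the linker histone H1 that package newly made DNA. They were taken as every gene whose symbol in GENCODE M21 begins with Hist1h, Hist2h, Hist3h or Hist4h, leaving out pseudogenes and genes with under 10 reads summed over the 12 libraries. Of 70 such symbols in the files, 3 were pseudogenes and 6 had too few reads, 5 of them none at all. The rule left 61 genes out of 55335 listed and 30896 with at least 1 read. The gene just outside the rule was Hist2h2bb with 6 reads in total, and the gene just inside it was Hist1h2br with 11 reads. By class the members comprised 6 H1, 15 H2A, 16 H2B, 11 H3 and 13 H4 genes. The annotation places 51 of them in the Hist1 cluster on chromosome 13, 7 in Hist2 on chromosome 3, 2 in Hist3 on chromosome 11 and 1, Hist4h4, on chromosome 6.

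RNA was sequenced from cultured fibro-adipogenic progenitors (FAPs), the mesenchymal progenitor cells of skeletal muscle, sorted from mouse limb muscle as Sca1-positive cells without 7AAD, lineage or Vcam stain and grown with 20% serum. The labels trace the 3 groups given 4-hydroxytamoxifen (4-OHT) to Prrx1Cre;Bap1f/f mice and WT to wild-type mice, while the protocol names Rosa-CreER, a Cre that 4-OHT activates in all cell types, as the means of deletion. Each of the 4 groups has 3 libraries. Smn1OE_K186R cells received 4-OHT (1 µM) to delete Bap1, a nuclear deubiquitinase of histone H2A, and a vector for human SMN carrying the K186R change. Smn1OE cells were given 4-OHT too, with the vector coding for unchanged human SMN, the protein whose complex assembles small nuclear ribonucleoproteins. Bap1KO cells received 4-OHT alone, and WT cells received ethanol, the solvent. According to the series text the study asked which genes Bap1 and Smn target in these cells. The groups include no empty vector, no SMN vector without 4-OHT and no 4-OHT on intact Bap1. Bap1KO and WT replicates 1, 2 and 3 were grown in media batches A, B and C, and the replicates of both SMN groups in batches D, E and F, so an SMN vector and a batch change cannot be told apart against Bap1KO or WT.

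Reads counted in genes per library ranged between 51198342 and 68216089, and the 61 histone genes took 0.0303% to 0.0738% of them, or 20374 to 45654 reads. Levels are given as CPM, read counts scaled to the size of each library. Smn1 averaged 3940 CPM in Smn1OE_K186R, 4757 in Smn1OE, 32.9 in Bap1KO and 33.6 in WT, which places the high levels where a vector was given. Bap1 averaged 45.3 ± 3.15 CPM in Smn1OE_K186R, 49.1 ± 1.4 in Smn1OE, 40.3 ± 1.74 in Bap1KO and 50.5 ± 1.32 in WT (SD, n = 3 each), and was called lower in Bap1KO than in WT (log2 fold change -0.32, SE 0.07, adjusted p = 0.0139), a call that did not hold when replicate 2 or 3 of Bap1KO, or replicate 3 of WT, was left out. Although the labels give the deletion to both SMN groups, Bap1 was not called lower than in WT in Smn1OE_K186R (-0.16, adjusted p = 0.0767) or Smn1OE (-0.04, adjusted p = 0.638), and it was called higher in Smn1OE than in Bap1KO (0.28, adjusted p = 0.00924). These are reads over the whole gene, and which part is deleted is not given in the labels. Xist averaged 0.0425, 0.0163, 252 and 228 CPM and the Y-linked Eif2s3y 63.0, 59.8, 0 and 0 CPM in Smn1OE_K186R, Smn1OE, Bap1KO and WT, so the sex of the cells is a further difference that cannot be told apart from the SMN vectors. FAP markers summed to 4187 to 5856 CPM in Smn1OE_K186R, 3530 to 5378 in Smn1OE, 9043 to 15871 in Bap1KO and 14238 to 20676 in WT. Most of this was Col1a1, at 3763, 3181, 9441 and 12679 CPM in the same order, while Dcn averaged 55.5, 48.4, 109 and 299 CPM and Pdgfra 22.8, 18.0, 33.8 and 90.9 CPM. Col3a1 (596, 416, 2372 and 3633 CPM), Pdgfrb (228, 194, 376 and 436 CPM) and Ly6a (318, 276, 718 and 888 CPM) were also lower in the SMN groups. The FAP marker Cd34 went the other way, at 60.9, 65.3, 23.5 and 44.1 CPM. The 6 myogenic markers summed to 266 to 553, 338 to 597, 144 to 340.3 and 106 to 154 CPM in the same groups, nearly all of it Acta1, with Pax7, Myf5, Myod1 and Myog at or near 0. Endothelial markers summed to at most 1.98 CPM and T and NK cell markers to at most 0.207 CPM in any library. Markers of other cell types were not absent. Pericyte markers summed to between 54.0 and 89.5 CPM over all libraries, most of it Cspg4, and macrophage markers to between 20.4 and 34.3 CPM. The Schwann cell markers were mostly S100b, at 6.13, 5.96, 7.6 and 10.7 CPM in Smn1OE_K186R, Smn1OE, Bap1KO and WT. The part that the levels of these markers had in the histone results was not tested. The labels do not say that replicates came from separate animals, so p-values measure only the spread between these samples.

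Histone genes of this kind are transcribed mainly in S phase, when the cell copies its DNA and needs histones in step with it. Npat and Casp8ap2 (FLASH) act at the histone locus, and the pre-mRNA is not normally polyadenylated. A stem-loop shortly after the stop codon is bound by Slbp, and the U7 ribonucleoprotein with Lsm10 and Lsm11, which the SMN complex helps to assemble, directs cleavage just past it. At the end of S phase histone mRNA is degraded by a route that uses Upf1 and Eri1. Some of these genes also give polyadenylated transcripts that run past the stem-loop, a form known from differentiated and resting cells. Whether the libraries were selected for poly(A) tails is not given in the sources used here.

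The stem-loop is the feature that sets the 3′ end of these messages apart, and its letters are shown for 8 members. Transcript stretches after the stop codon in GENCODE M21 were searched on the sense strand for GGNNNTTTTNAGNNCC. The pattern was found in 41 of the 61 members, against 0.414% of 21037 protein-coding genes (87 genes, of which 46 were not members). The form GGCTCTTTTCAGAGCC was carried by 23 members, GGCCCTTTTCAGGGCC by 7 and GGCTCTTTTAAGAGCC by 6, and the remaining 5 held one of 3 others. Capitals mark the 16-base stem-loop, and 5 bases are given on each side. The first 4 are members on which the comparisons turn, and the last 4 show the less common forms.
Hist1h1c: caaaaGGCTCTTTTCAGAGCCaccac
Hist1h3b: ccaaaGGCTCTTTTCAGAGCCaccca
Hist1h2ab: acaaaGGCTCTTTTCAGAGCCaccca
Hist1h4d: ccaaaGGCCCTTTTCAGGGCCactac
Hist1h2bk: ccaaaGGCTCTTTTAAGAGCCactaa
Hist1h4i: ttaaaGGCCCTTTTTAGGGCCaccac
Hist1h4b: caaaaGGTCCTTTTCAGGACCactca
Hist2h2ac: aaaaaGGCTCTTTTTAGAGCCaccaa
The pattern was not matched in the annotated transcripts of 20 members, Hist1h2bc among them, which says only that these letters are not in the annotated stretch.

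Promoters of 56 members were found in the RefSeq table (build GRCm38.p6), and 4 are shown, each of a gene with values given for every library and from a class of its own. Each run is the 250 bases before the start, on the + strand of chromosome 13: Hist1h1c at chr13:23738557-23738806, Hist1h2ab at chr13:23750838-23751087, Hist1h3b at chr13:23752095-23752344 and Hist1h4d at chr13:23581318-23581567. Capitals mark, on either strand, the 4 motifs whose letters are given after the sequences.
Hist1h1c: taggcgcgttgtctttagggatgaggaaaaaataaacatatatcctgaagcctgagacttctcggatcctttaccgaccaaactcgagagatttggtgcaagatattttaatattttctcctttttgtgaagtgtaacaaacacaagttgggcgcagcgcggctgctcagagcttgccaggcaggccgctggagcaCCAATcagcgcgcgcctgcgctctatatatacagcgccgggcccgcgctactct
Hist1h2ab: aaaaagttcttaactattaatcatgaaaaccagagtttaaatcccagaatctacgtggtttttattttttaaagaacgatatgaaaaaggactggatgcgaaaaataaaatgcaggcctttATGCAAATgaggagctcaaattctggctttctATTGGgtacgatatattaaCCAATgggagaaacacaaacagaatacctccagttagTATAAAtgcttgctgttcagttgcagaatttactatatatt
Hist1h3b: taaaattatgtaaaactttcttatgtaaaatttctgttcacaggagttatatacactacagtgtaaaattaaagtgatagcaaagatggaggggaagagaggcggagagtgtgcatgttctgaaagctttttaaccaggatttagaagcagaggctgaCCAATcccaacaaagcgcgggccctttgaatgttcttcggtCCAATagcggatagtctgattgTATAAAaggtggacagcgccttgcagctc
Hist1h4d: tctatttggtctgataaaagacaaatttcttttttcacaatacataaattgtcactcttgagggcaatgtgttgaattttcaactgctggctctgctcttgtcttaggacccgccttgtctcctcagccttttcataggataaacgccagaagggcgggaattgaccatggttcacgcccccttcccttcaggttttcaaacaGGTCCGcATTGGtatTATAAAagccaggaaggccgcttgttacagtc
TATAAA, the letters of a TATA box, occurred in 48.2% of the 56 member promoters and in 13.0% of 27025 RefSeq promoters of the same length. CCAAT, a box common in histone promoters, occurred in 82.1% against 34.5%, in all H1, H2A and H2B promoters found but in 3 of 12 H4 promoters. The octamer ATTTGCAT, which Pou2f1 (Oct-1) binds in H2B promoters, occurred in 17.9% against 1.61%, in 6 of 15 H2A and 4 of 14 H2B promoters. GGTCCG, part of an element described in H4 promoters, occurred in 19.6% against 6.82%, in 9 of 12 H4 promoters. H2A and H2B genes that lie head to head share promoter letters, as the windows of Hist1h2ae (chr13:23571221-23571470) and Hist1h2bg (chr13:23571150-23571399) overlap. Motifs that overlap are marked together.

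Histone genes are near copies of each other, and this bears on every count given here. Of the 61 members, 56 shared at least 1 stretch of 75 bases of annotated transcript with another gene, and 25 shared 50% or more of theirs. Shared stretches made up 100% of Hist2h2aa2, 89.0% of Hist1h4m, 83.4% of Hist1h4n, 78.3% of Hist1h3i, 65.5% of Hist1h2ad, 62.6% of Hist2h3c2, 58.6% of Hist1h3b and 55.4% of Hist1h2ab, whose own levels are uncertain. They made up 6.7% of Hist1h1c, 3.7% of Hist1h4d and 1.5% of Hist1h1d. Another annotated gene overlapped 19 members, such as Hist1h1e with Hist1h2be and Hist3h2a with Trim17, and the strand setting of the counting is not given in the sources used here.

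Together the 61 genes were most abundant in the SMN groups and least abundant in WT. Their summed level was 687, 543 and 722 CPM in Smn1OE_K186R, 665, 647 and 716 in Smn1OE, 522, 583 and 558 in Bap1KO and 309.9, 388 and 346 in WT. All Bap1KO libraries lay above all WT libraries, and all Smn1OE libraries above all Bap1KO libraries, while replicate 2 of Smn1OE_K186R lay within the Bap1KO range. Bap1KO had 1.59 times the WT mean, and Smn1OE_K186R and Smn1OE had 1.17 and 1.22 times the Bap1KO mean. Mitochondrial reads were 1.94% to 2.15% of gene reads in Smn1OE_K186R, 1.92% to 2.05% in Smn1OE, 1.52% to 1.67% in Bap1KO and 1.29% to 1.48% in WT. Unaligned reads, as a share of all reads in the tables, were 2.82% to 3.05%, 3.26% to 3.71%, 1.22% to 1.78% and 1.42% to 1.70% in the same order, and the part of either in the histone results was not tested. A linker histone gene and an H2B gene, Hist1h1c and Hist1h2bc, held most of these reads, at 69.7% in Smn1OE_K186R, 69.1% in Smn1OE, 81.5% in Bap1KO and 83.3% in WT. The other 59 genes summed to 198 ± 38.2 CPM in Smn1OE_K186R, 210.1 ± 27.1 in Smn1OE, 102 ± 26.2 in Bap1KO and 58.0 ± 10.7 in WT (SD, n = 3 each), which is 1.94 and 2.05 times Bap1KO for the SMN groups and 1.76 times WT for Bap1KO. In bulk samples, fewer cells that make a transcript and less of it per cell cannot be told apart.

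Each class had its own size of difference. H1 genes summed to 251 ± 20.9 CPM in Smn1OE_K186R, 256 ± 18.1 in Smn1OE, 253 ± 3.31 in Bap1KO and 146 ± 10.6 in WT. This class, carried by Hist1h1c, was higher in all libraries of the other 3 groups than in WT and nearly level among those 3. H2B genes summed to 259 ± 43.8, 266 ± 11.9, 228 ± 14.5 and 159 ± 23.4 CPM in the same order. The remaining classes were lower in Bap1KO than in the SMN groups and lower still in WT. H2A sums were 34.3 ± 8.23, 38.7 ± 6.14, 18.1 ± 5.46 and 10.9 ± 1.48 CPM, H3 sums 35.5 ± 9.26, 38.0 ± 9.42, 18.8 ± 5.87 and 10.3 ± 3.05 CPM, and H4 sums 70.6 ± 17.2, 77.3 ± 7.95, 35.5 ± 7.53 and 21.5 ± 3.0 CPM. Per kilobase of transcript, the level of Hist1h2bc was 194 CPM in Smn1OE_K186R, 200.3 in Smn1OE, 182 in Bap1KO and 128 in WT, above that of Hist1h1c at 146, 150.1, 155 and 90.6 CPM. Next on this per-length scale were the H4 genes Hist1h4h at 62.1, 69.6, 24.7 and 15.1 CPM and Hist1h4i at 32.6, 34.9, 26.1 and 16.5 CPM.

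**Figure D1:**
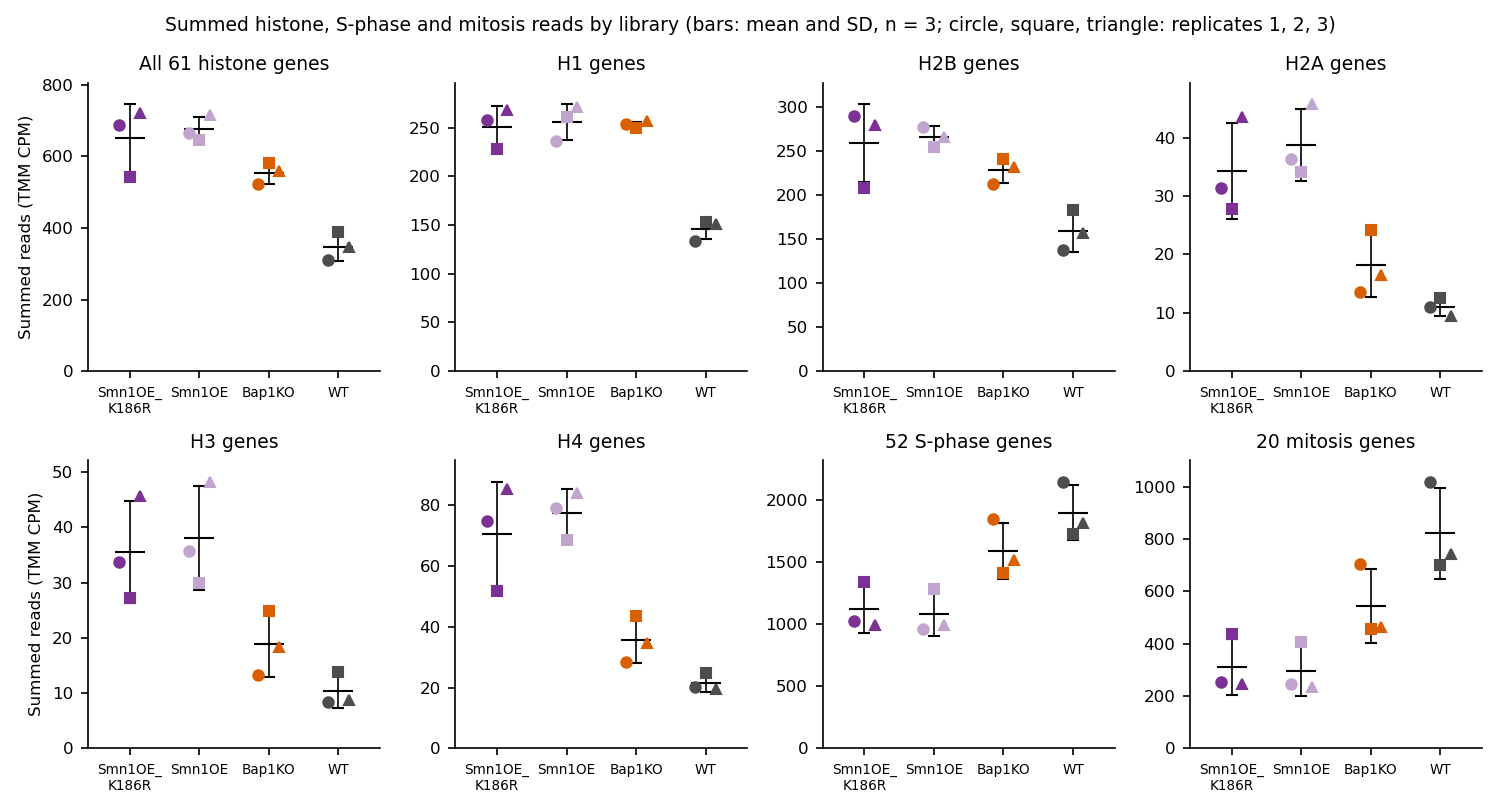
Summed level (CPM, vertical axis) of all 61 histone genes, of each class, of 52 S-phase genes and of 20 mitosis genes in each library of the 4 groups. Points are libraries and bars the mean and SD of 3. The histone sum is lowest in the 3 WT libraries (309.9 to 388 CPM), whereas the S-phase and mitosis sums have their highest means there.

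The first comparison asked which histone genes differed between Bap1KO and WT cells. By the labels, these groups differ in the mice they came from and in hydroxytamoxifen treatment as well as in the Bap1 deletion. The part of each in the differences cannot be told apart. In Bap1KO cells 12 of 47 tested members were called higher than in WT and none lower, where 3.36% of all 16597 tested genes were called higher and 6.37% lower (edgeR quasi-likelihood test, Benjamini-Hochberg adjusted p under 0.05). The median log2 fold change of the 47 was 0.59, with 38 above 0, beside 0.0 over all tested genes. The calls covered 3 of 5 tested H1 genes, 1 of 8 H2A, 3 of 12 H2B, 2 of 9 H3 and 3 of 13 H4. With media batch as a block 21 members were called higher, including all 12, where 11.9% of all genes were called higher. In 25 of 47 members, and in 28.2% of all genes, Bap1KO was above WT in all 3 batches, and 1 member, Hist1h2af, was below in all 3, as were 30.7% of all genes.

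Among the linker histone genes, 3 rose in Bap1KO. Hist1h1c, which codes for H1.2, was at 245, 236 and 245 CPM in Bap1KO and 130.1, 148 and 146 CPM in WT. The groups were far apart relative to their spread, and the log2 fold change was 0.78 (SE 0.09, adjusted p = 0.000899). Hist1h1d, which codes for H1.3, was at 7.02, 10.3 and 7.44 CPM in Bap1KO and 2.81, 4.27 and 3.03 CPM in WT, a log2 fold change of 1.29 (SE 0.19, adjusted p = 0.00238). Hist1h1e, which codes for H1.4, was at 2.04, 3.28 and 3.14 CPM in Bap1KO and 0.806, 1.27 and 1.16 CPM in WT, a log2 fold change of 1.39 (SE 0.23, adjusted p = 0.00415). Bap1KO and WT libraries did not overlap for any of these 3 genes. Hist1h1a did not pass the test, with 0.106 CPM in Bap1KO and 0.103 CPM in WT.

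Of the core histone genes, the H3 gene Hist1h3b had the largest fold change among those called. It was at 1.10, 4.91 and 2.80 CPM in Bap1KO and 0.624, 0.732 and 0.588 CPM in WT. The Bap1KO libraries differed widely among themselves but all lay above WT, and the log2 fold change was 2.18 (SE 0.54, adjusted p = 0.0274). The H4 gene Hist1h4n was at 0.968, 1.17 and 1.09 CPM in Bap1KO and 0.183, 0.305 and 0.542 CPM in WT, a log2 fold change of 1.65 (SE 0.32, adjusted p = 0.0100), again without overlap. Another H4 gene, Hist1h4c, was at 0.387, 0.823 and 0.762 CPM in Bap1KO and 0.274, 0.305 and 0.0929 CPM in WT, a log2 fold change of 1.54 (SE 0.42, adjusted p = 0.0384). For the H2A gene Hist1h2ac the levels were 3.52, 8.57 and 4.94 CPM in Bap1KO and 1.95, 3.08 and 2.26 CPM in WT (log2 fold change 1.22, SE 0.31, adjusted p = 0.0311). The abundant H2B gene Hist1h2bc was at 198, 217 and 215 CPM in Bap1KO and 128, 169.9 and 147 CPM in WT (log2 fold change 0.50, SE 0.13, adjusted p = 0.0288). None of these genes had a Bap1KO library within the WT range. The other 4 called were Hist1h2be, Hist1h2bg, Hist1h3d and Hist1h4i, at log2 fold changes of 1.15, 1.02, 1.12 and 0.66. Without Bap1KO replicate 2, Bap1KO replicate 3, WT replicate 1 or WT replicate 3, the number called higher was 4, 4, 4 and 5. Over all tested genes 1.55% and 0.813% were called higher without Bap1KO replicate 2 and 3, in place of 3.36%. The calls of Hist1h1c, Hist1h1d, Hist1h1e and Hist1h4n were lost under none of the alternatives run.

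S-phase genes were not higher alongside the histone genes. The 52 listed S-phase and DNA replication genes, such as Mcm and replication factor subunits, summed to 1841, 1408 and 1512 CPM in Bap1KO and 2144, 1721 and 1813 CPM in WT. Within media batches A, B and C the S-phase sum of Bap1KO minus that of WT was -0.22, -0.29 and -0.26 on the log2 scale, while the same difference of the histone sum was 0.75, 0.59 and 0.69. Of the 52 genes 1 was called lower, where 6.37% of all genes were. No S-phase gene was called higher, where 3.36% of all genes were. The median log2 fold change of the 52 was -0.36. With media batch as a block 35 of the 52 were called lower, where 17.2% of all genes were. The 20 listed mitosis genes summed to 706, 457 and 465 CPM in Bap1KO and 1019, 700.2 and 742 CPM in WT. None of the 20 was called, beside 6.37% of all genes called lower and 3.36% called higher.

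The second comparison set the SMN groups against Bap1KO, from which they differ in media batch and in the sex of the cells as well as in the vector. Against Bap1KO, 30 of 47 tested members were called higher in Smn1OE_K186R and 28 in Smn1OE, and none lower in either. Over all tested genes 16.1% were called higher and 16.5% lower in Smn1OE_K186R, and 15.8% higher and 17.7% lower in Smn1OE. The median log2 fold change of the 47 was 1.33 in Smn1OE_K186R and 1.30 in Smn1OE, beside -0.01 over all genes in each. The 2 comparisons share the Bap1KO libraries, so their likeness is not a separate finding. Some rare members, Hist1h1a, Hist1h3g, Hist1h4f, Hist2h4, Hist3h2ba and Hist4h4 among them, passed the filter on low counts only through the SMN groups, so the counts and medians are a description. Without Bap1KO replicate 1 the number called higher in Smn1OE_K186R was 18, where 9.6% of all genes were called higher. Scaled by total counts in place of the trimmed mean (TMM), the share of higher calls among all called genes was 61.9% in place of 49.3% in Smn1OE_K186R and 60.9% in place of 47.2% in Smn1OE. H4 genes were called most often, 11 of 13 in each, at class medians of 1.96 in Smn1OE_K186R and 1.65 in Smn1OE. H3 genes followed with 6 of 9 in each, then H2B with 7 and 6 of 12, H2A with 3 of 8 in each and H1 with 3 and 2 of 5.

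Hist1h1c and Hist1h2bc, the most abundant members, were not among those called, while Hist1h4h, at a mean of 20.2 CPM over all libraries, was called in both SMN groups. Hist1h1c was at 234, 204 and 246 CPM in Smn1OE_K186R, 216, 239.5 and 247 CPM in Smn1OE and 245, 236 and 245 CPM in Bap1KO. The libraries of the 3 groups overlapped, and the log2 fold changes against Bap1KO were -0.09 for Smn1OE_K186R and -0.05 for Smn1OE (SE 0.09 each, adjusted p = 0.458 and 0.704). Hist1h2bc was at 254, 179.9 and 240.1 CPM in Smn1OE_K186R, 241, 224 and 230.2 CPM in Smn1OE and 198, 217 and 215 CPM in Bap1KO. Its log2 fold changes were 0.10 and 0.14 (SE 0.13 each, adjusted p = 0.584 and 0.413), although all Smn1OE libraries lay above Bap1KO. Hist2h3c2, an H3 gene, was not called in any comparison, with log2 fold changes against Bap1KO of -0.18 in Smn1OE_K186R and -0.19 in Smn1OE. Hist3h2a, the H2A gene with the most reads, was at 11.3, 9.22 and 13.5 CPM in Smn1OE_K186R, 11.5, 13.2 and 13.1 CPM in Smn1OE and 7.24, 11.3 and 8.04 CPM in Bap1KO, and was not called in either.

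**Figure D2:**
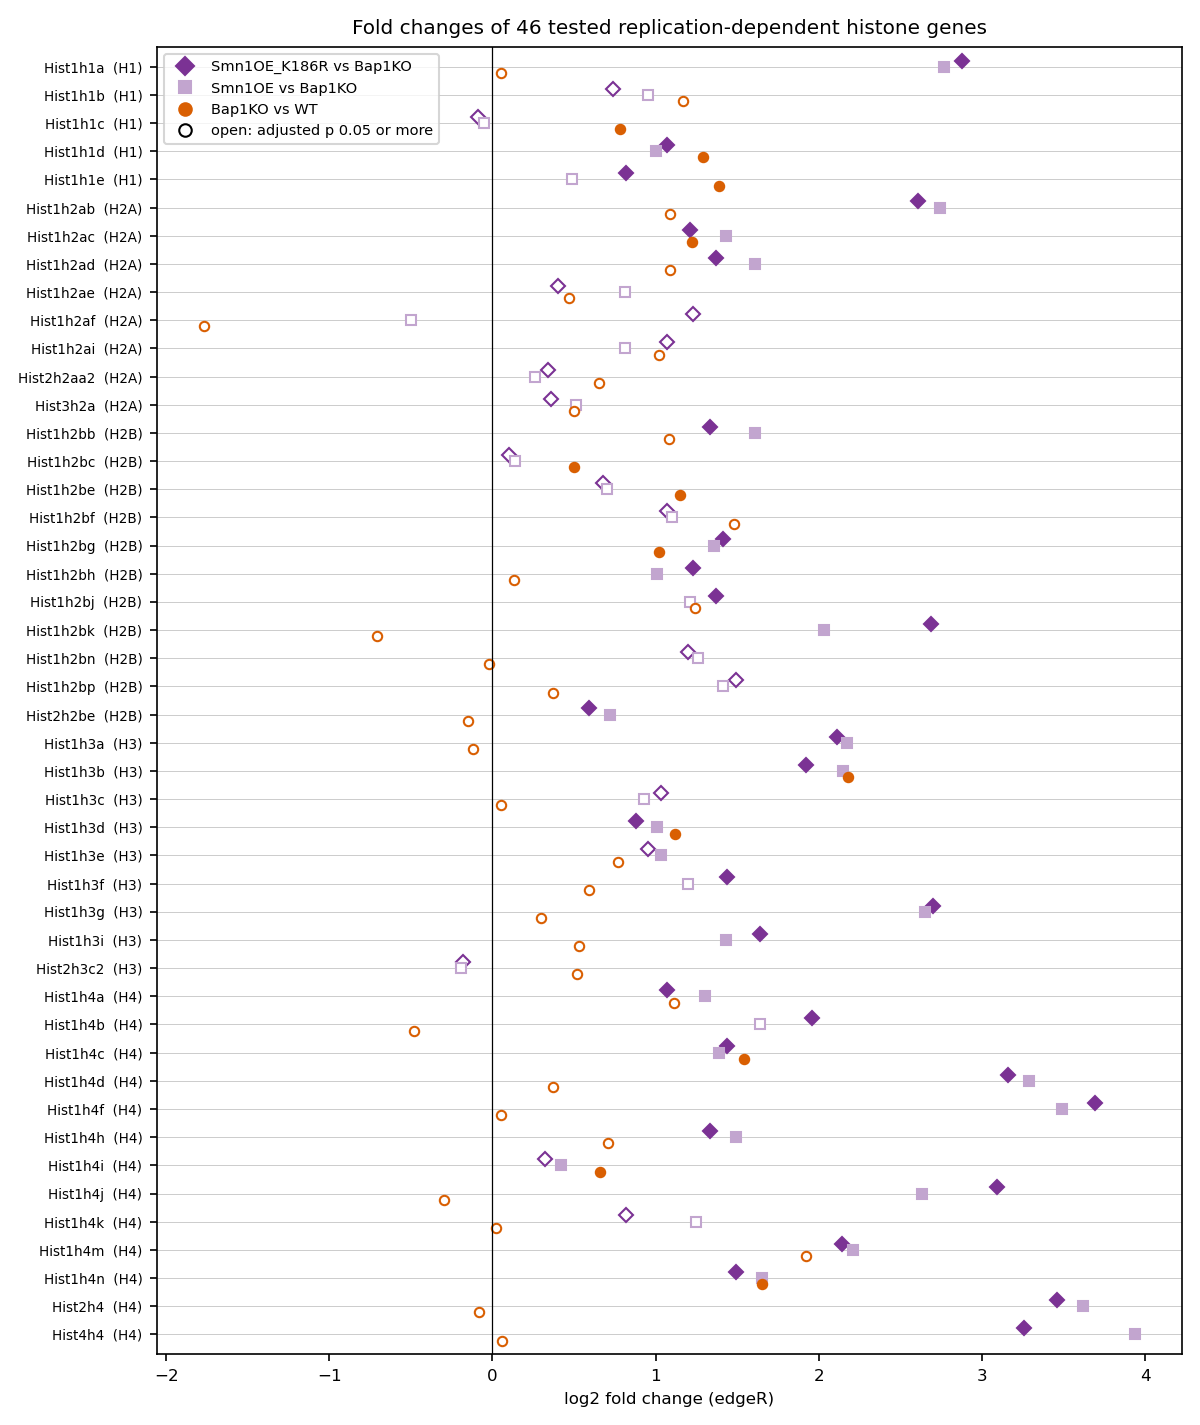
Log2 fold change (horizontal axis) of 46 tested histone genes in Smn1OE_K186R against Bap1KO, Smn1OE against Bap1KO and Bap1KO against WT. Filled symbols had an adjusted p under 0.05, and Hist3h2ba, with no read in Bap1KO, is left out. Hist1h1c stands near 0 for both SMN groups but at 0.78 for Bap1KO against WT, and Hist1h4d at 3.16 and 3.29 against 0.37.

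An H4 gene, Hist1h4d, had the largest fold change against Bap1KO among called members that reached 1 CPM. It was at 5.61, 3.49 and 4.76 CPM in Smn1OE_K186R, 5.71, 3.59 and 5.96 CPM in Smn1OE and 0.462, 0.854 and 0.218 CPM in Bap1KO. No SMN library came near the Bap1KO range, and the level was 8.91-fold higher in Smn1OE_K186R (log2 3.16, SE 0.42, adjusted p = 0.000602) and 9.81-fold higher in Smn1OE (log2 3.29, SE 0.43, adjusted p = 0.000395). Bap1KO and WT overlapped for this gene, with WT at 0.228, 0.504 and 0.464 CPM. Hist1h4h, the H4 gene with the highest mean CPM, was at 31.7, 17.4 and 38.5 CPM in Smn1OE_K186R, 33.2, 28.6 and 36.4 CPM in Smn1OE, 8.76, 14.3 and 11.7 CPM in Bap1KO and 6.11, 8.50 and 6.66 CPM in WT. Every SMN library was above Bap1KO, at log2 fold changes of 1.33 (SE 0.26, adjusted p = 0.00324) in Smn1OE_K186R and 1.49 (SE 0.26, adjusted p = 0.00168) in Smn1OE. Hist1h4n was at 2.48, 3.71 and 2.92 CPM in Smn1OE_K186R and 3.70, 3.40 and 3.01 CPM in Smn1OE, above all Bap1KO libraries, at log2 fold changes of 1.49 and 1.65 (adjusted p = 0.00356 and 0.00199). Hist1h4m, most of whose sequence is shared, was at 2.47, 0.538 and 2.20 CPM in Smn1OE_K186R, 2.40, 0.612 and 2.46 CPM in Smn1OE and 0.283, 0.686 and 0.200 CPM in Bap1KO. Replicate 2 of each SMN group, both from batch E, lay within the Bap1KO range for this gene, which was called at log2 fold changes of 2.14 and 2.21 (adjusted p = 0.0262 and 0.0227), calls that were lost without certain single libraries and, in Smn1OE_K186R, with batch as a random effect (adjusted p = 0.0544). Hist1h4c was at 2.00, 1.26 and 2.09 CPM in Smn1OE_K186R and 1.66, 1.73 and 1.78 CPM in Smn1OE, above all Bap1KO libraries, at log2 fold changes of 1.44 and 1.39 (adjusted p = 0.0132 and 0.0149).

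Several H3 and H2A genes gave the same order of groups. Hist1h3b was at 7.89, 7.75 and 17.8 CPM in Smn1OE_K186R, 9.98, 9.10 and 20.1 CPM in Smn1OE and 1.10, 4.91 and 2.80 CPM in Bap1KO. Replicate 3 of each SMN group, both from batch F, was highest, and no SMN library reached down to Bap1KO (log2 fold change 1.92, SE 0.49, adjusted p = 0.0117 in Smn1OE_K186R and 2.15, SE 0.49, adjusted p = 0.00663 in Smn1OE). Hist1h2ab was at 3.64, 4.06 and 6.53 CPM in Smn1OE_K186R, 4.45, 2.63 and 8.46 CPM in Smn1OE, 0.656, 0.884 and 0.780 CPM in Bap1KO and 0.213, 0.244 and 0.635 CPM in WT. Its SMN libraries were several-fold above all Bap1KO libraries, at log2 fold changes of 2.61 (SE 0.46, adjusted p = 0.00214) in Smn1OE_K186R and 2.74 (SE 0.46, adjusted p = 0.00149) in Smn1OE. Hist1h2ac was at 11.5, 10.5 and 17.5 CPM in Smn1OE_K186R, 14.5, 13.2 and 18.3 CPM in Smn1OE and 3.52, 8.57 and 4.94 CPM in Bap1KO, without overlap (log2 fold change 1.21 and 1.43, adjusted p = 0.0107 and 0.00464). Hist1h2ad was at 2.20, 1.70 and 2.73 CPM in Smn1OE_K186R, 3.07, 1.63 and 3.12 CPM in Smn1OE and 0.581, 1.22 and 0.744 CPM in Bap1KO. These too did not overlap, and both were called, at log2 fold changes of 1.37 and 1.61 (adjusted p = 0.0144 and 0.00646). Hist1h3i rose by 1.64 and 1.43 on the log2 scale (adjusted p = 0.00436 and 0.00781), and Hist1h3d by 0.88 and 1.01 (adjusted p = 0.0319 and 0.0176).

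Of the less abundant linker histone genes, 3 were called higher than in Bap1KO in at least 1 SMN group. Hist1h1d was at 17.2, 18.5 and 16.5 CPM in Smn1OE_K186R, 14.7, 15.9 and 19.0 CPM in Smn1OE and 7.02, 10.3 and 7.44 CPM in Bap1KO. The groups did not overlap, and the log2 fold changes were 1.07 and 1.00 (SE 0.18 each, adjusted p = 0.00172 and 0.00207). Hist1h1e was at 5.73, 4.52 and 4.71 CPM in Smn1OE_K186R, 4.05, 3.95 and 3.88 CPM in Smn1OE and 2.04, 3.28 and 3.14 CPM in Bap1KO. Both SMN groups lay above Bap1KO, and the difference was called in Smn1OE_K186R (log2 fold change 0.82, SE 0.22, adjusted p = 0.0131) but not in Smn1OE (0.49, SE 0.22, adjusted p = 0.0965). Hist1h1a, which codes for H1.1, averaged 0.796 CPM in Smn1OE_K186R, 0.735 in Smn1OE and 0.106 in Bap1KO, at log2 fold changes of 2.88 and 2.77 (adjusted p = 0.00200 and 0.00214). Hist1h1a passed the filter on low counts only through the SMN groups, as did the rarer genes named next. Its calls and their levels are therefore a description. Several genes rarer still, chosen here after their values were seen, were close to absent from Bap1KO: the H4 gene Hist2h4 averaged 0.651, 0.729 and 0.0559 CPM and Hist1h4f 0.436, 0.378 and 0.0313 CPM in Smn1OE_K186R, Smn1OE and Bap1KO. Hist3h2ba, an H2B gene, had no read in any Bap1KO library and was at least 5.18-fold higher in Smn1OE_K186R and at least 4.52-fold higher in Smn1OE, against a floor of 3 reads per library that covers counting error only. Placing it at this bound left the medians over the 47 as given, since the bound is above them.

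**Figure D3:**
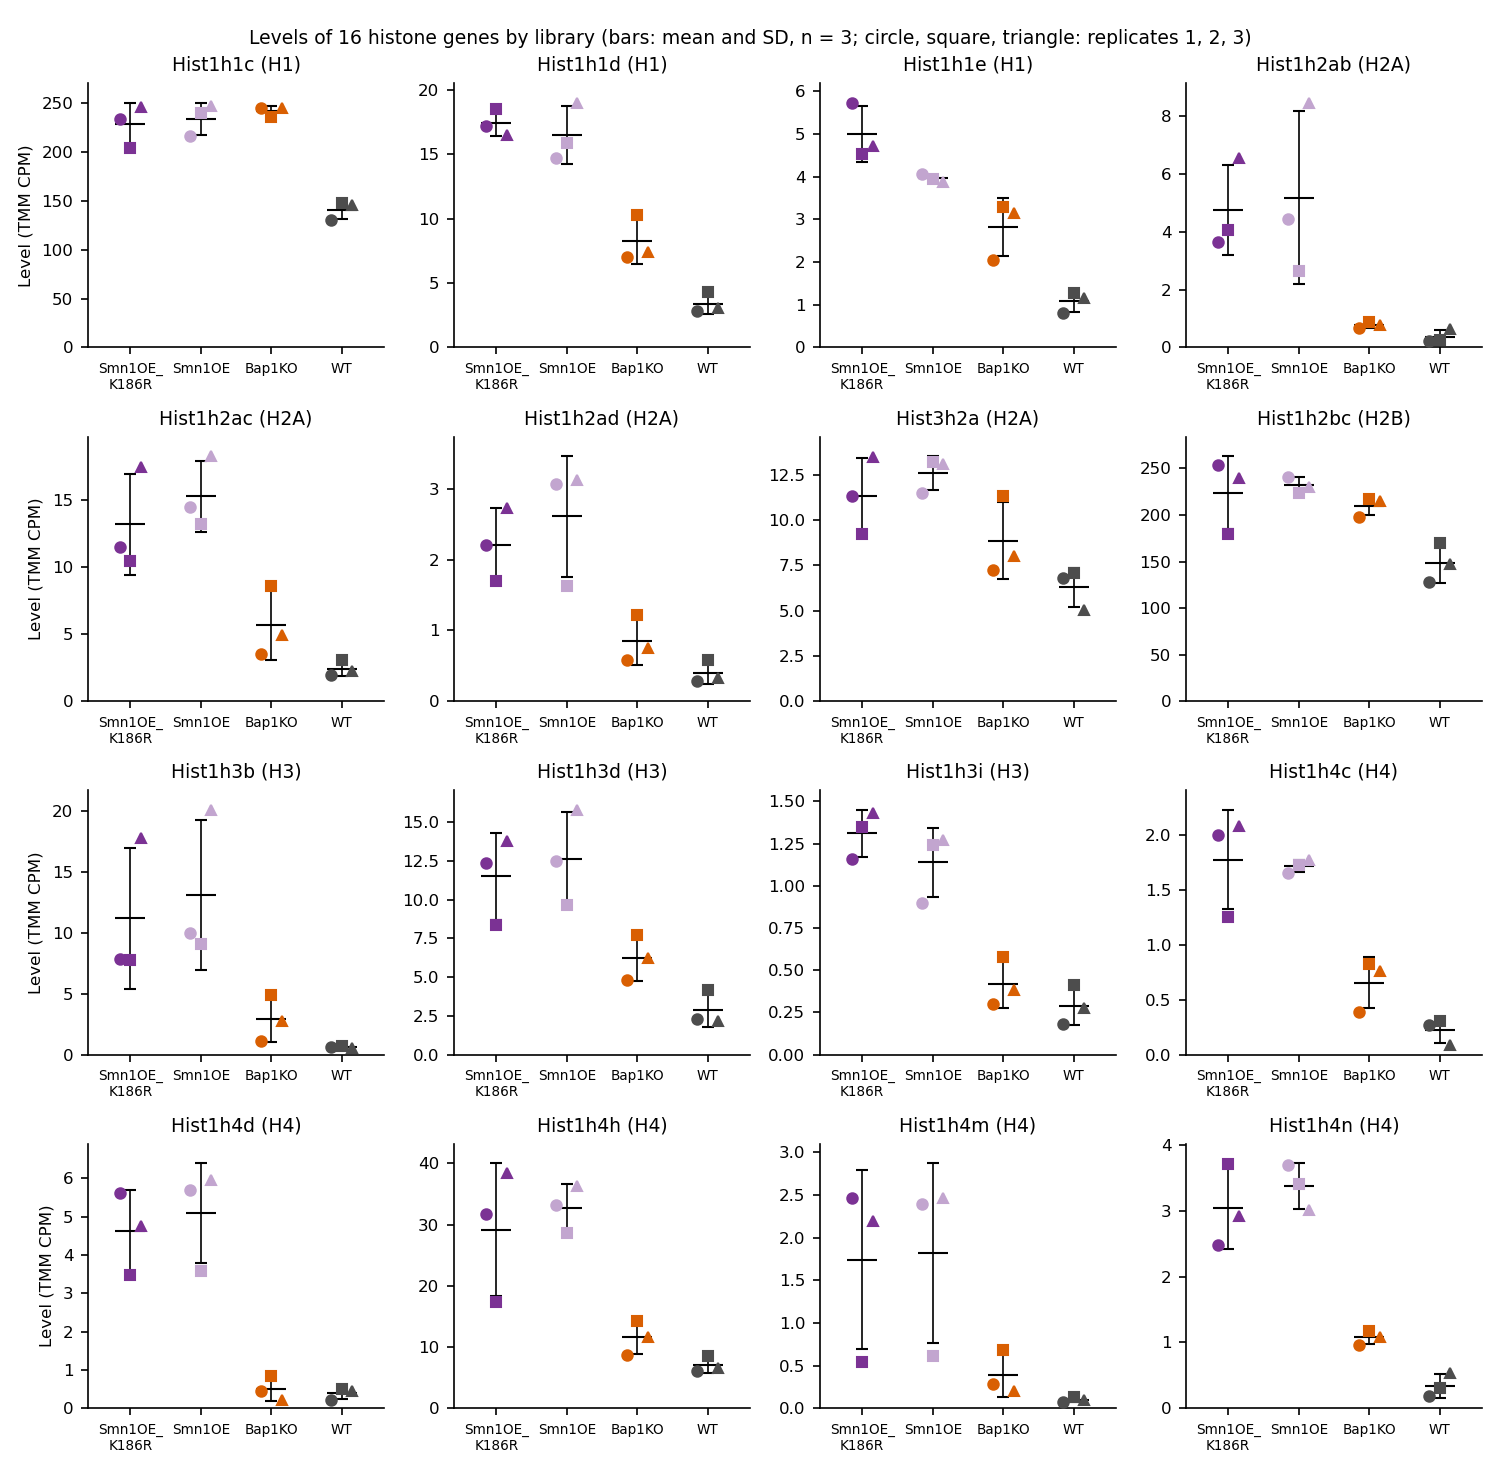
Level (CPM, vertical axis, each from 0) of 16 histone genes in each library, by group. Points are libraries (circle, square and triangle for replicates 1, 2 and 3) and bars the mean and SD of 3. Hist1h1c steps once, between WT (130.1 to 148 CPM) and the other groups, Hist1h4d once, between Bap1KO (0.218 to 0.854 CPM) and the SMN groups, and Hist1h1d at both steps.

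Set side by side, members differed in where their change lay. Hist1h1c had log2 fold changes of -0.09 in Smn1OE_K186R and -0.05 in Smn1OE against Bap1KO, and of 0.78 in Bap1KO against WT. Hist1h4d had 3.16 and 3.29 against Bap1KO and 0.37 in Bap1KO against WT. Hist1h1d had 1.07 and 1.00 against Bap1KO and 1.29 in Bap1KO against WT. These comparisons share the Bap1KO libraries in opposite positions, and whether the pattern of one gene differs from that of another was not tested.

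Against WT most tested members were called higher in the SMN groups. The count was 39 of 47 in Smn1OE_K186R and 40 in Smn1OE, where 24.0% and 23.8% of all genes were called higher and 26.5% and 26.6% lower. Hist1h2af, an H2A gene with the fewest reads of those tested, was called lower in Smn1OE (log2 fold change -2.27, SE 0.82, adjusted p = 0.0350), a call that was lost without the filter on low counts, with batch as a random effect and without certain single libraries. The median log2 fold change of the 47 was 2.09 in Smn1OE_K186R and 2.12 in Smn1OE. Hist1h2bn, Hist1h3c, Hist1h4b, Hist1h4k and Hist2h3c2 were not called in either. Hist1h3b, at log2 fold changes of 4.10 and 4.33 (SE 0.56 each, adjusted p = 0.000141 and 0.000101) had the largest fold change of the tested members in both. The rare members that passed the filter on low counts only through the SMN groups are counted here as well. The counts and medians against WT are therefore a description. Batch and sex of the cells differ in these comparisons too.

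The third comparison set the K186R form against SMN itself, in cultures that share media batches. The edgeR test called no gene, histone or other, and 388 genes, none of them a histone member, had an unadjusted p under 0.05. With media batch as a block 48 genes were called higher in Smn1OE_K186R, 0.289% of those tested, and again no member. DESeq2 called no gene. Of the 47 tested members 21 were higher and 26 lower in Smn1OE_K186R, with a median log2 fold change of -0.04. In batches D, E and F the histone sum differed by 0.05, -0.25 and 0.01 on the log2 scale. Hist1h4d averaged 4.62 ± 1.07 CPM in Smn1OE_K186R and 5.09 ± 1.30 CPM in Smn1OE (SD, n = 3 each), with libraries that overlapped. A p above the threshold does not show that the levels were equal.

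S-phase genes were lower in the SMN groups than in Bap1KO. Their sum was 1026, 1338 and 994 CPM in Smn1OE_K186R, 961, 1277 and 990.4 CPM in Smn1OE, 1841, 1408 and 1512 CPM in Bap1KO and 2144, 1721 and 1813 CPM in WT. All SMN libraries lay below all Bap1KO libraries. Of the 52 genes 24 were called lower than in Bap1KO in Smn1OE_K186R and 29 in Smn1OE, and none higher, at medians of -0.57 and -0.67, where 16.5% and 17.7% of all genes were called lower. Without Bap1KO replicate 1 the number called lower was 11 in each, where 10.2% and 11.1% of all genes were called lower. Rrm2, a subunit of ribonucleotide reductase, averaged 182 CPM in Smn1OE_K186R, 176 in Smn1OE, 266 in Bap1KO and 313 in WT, and fell by 0.54 and 0.60 on the log2 scale against Bap1KO (adjusted p = 0.00116 and 0.000645). Rfc2, a clamp loader subunit, had log2 fold changes of -0.48 and -0.50 (adjusted p = 0.00243 and 0.00185), and Rpa2, which coats single-stranded DNA, -1.06 and -1.01 (adjusted p = 0.00307 and 0.00338). The 20 mitosis genes summed to 312 ± 107 CPM in Smn1OE_K186R, 296 ± 95.9 in Smn1OE, 543 ± 141 in Bap1KO and 821 ± 174 in WT (SD, n = 3 each), and 11 and 13 of them were called lower than in Bap1KO, or 3 and 2 without Bap1KO replicate 1.

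Set against the S-phase genes, the histone reads differed by more than either sum alone. For every 100 S-phase reads there were 66.9, 40.6 and 72.6 histone reads in Smn1OE_K186R, 69.2, 50.7 and 72.3 in Smn1OE, 28.3, 41.4 and 36.9 in Bap1KO and 14.5, 22.5 and 19.1 in WT. Bap1KO and WT did not overlap, and one SMN library, replicate 2 of Smn1OE_K186R, lay just inside the Bap1KO range. Without Hist1h1c and Hist1h2bc the means were 18.4, 20.0, 6.67 and 3.12 histone reads per 100 S-phase reads in the same order of groups. Within each group, too, the library with the most S-phase reads had the fewest histone reads: replicate 2 in both SMN groups and replicate 1 in Bap1KO and WT. With 3 libraries a group this is a description, and the libraries of a batch share their medium.

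**Figure D4:**
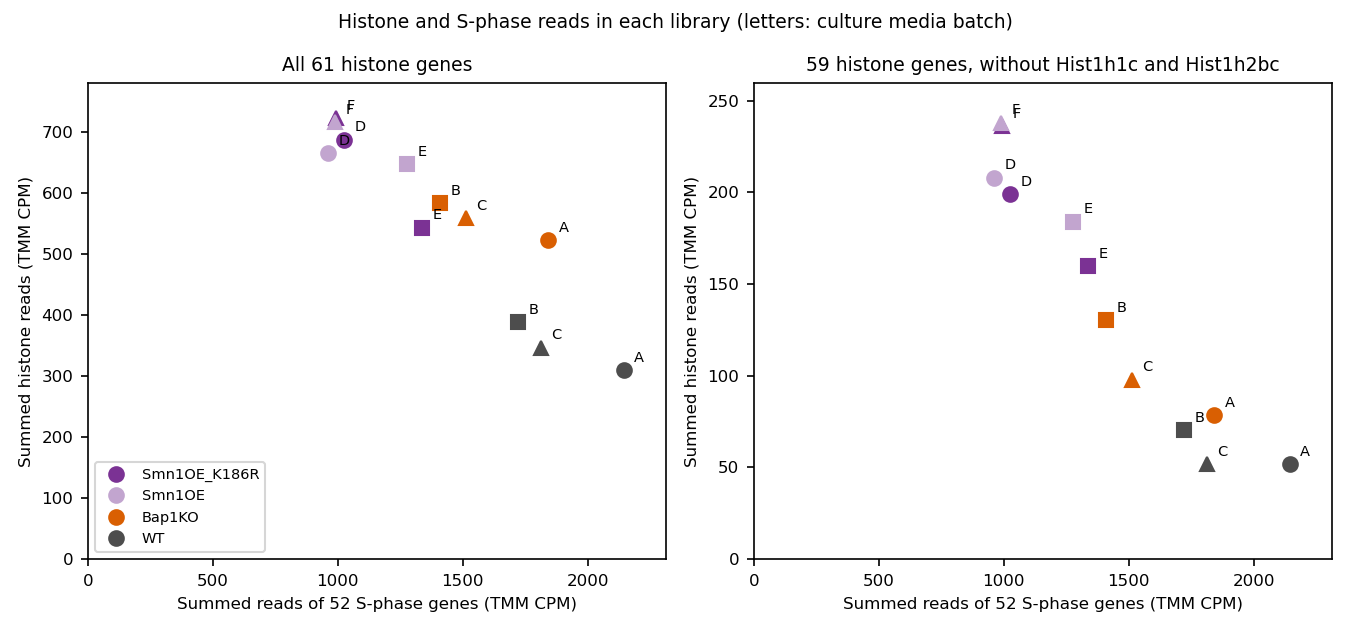
Summed level of histone genes (CPM, vertical axis) against that of 52 S-phase genes (CPM, horizontal axis) in each library, for all 61 members and for the 59 without Hist1h1c and Hist1h2bc. Each point is a library, coloured by group and lettered by culture media batch. SMN libraries lie at upper left, WT libraries at lower right (309.9 to 388 CPM of histone reads, 1721 to 2144 of S-phase reads) and Bap1KO between them, with replicate 2 of Smn1OE_K186R near Bap1KO.

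Genes that act on histone transcription and mRNA were also examined. Of 16 listed genes of histone transcription and 3′ processing none was called in Bap1KO against WT, where 3.36% of all genes were called higher and 6.37% lower. Against Bap1KO, 2 of the 16 were called higher in Smn1OE_K186R, and 3 higher and 1 lower in Smn1OE, where 16.1% and 15.8% of all genes were called higher and 16.5% and 17.7% lower. Slbp averaged 32.9 CPM in Smn1OE_K186R, 30.7 in Smn1OE, 36.2 in Bap1KO and 34.8 in WT, and was not called in any of the 3. Npat averaged 18.7, 15.8, 17.1 and 14.5 CPM in the same groups, Lsm10 19.8, 20.4, 22.9 and 21.8 CPM, and Lsm11 14.1, 14.5, 13.7 and 14.8 CPM. Casp8ap2 and Zfp473, another protein of the U7 machinery, were not called either. Pou2f1, which binds the octamer shown in the Hist1h2ab promoter, averaged 7.25 CPM in Smn1OE_K186R, 7.33 in Smn1OE, 4.91 in Bap1KO and 4.93 in WT, and rose by 0.56 and 0.58 against Bap1KO on the log2 scale (adjusted p = 0.0191 and 0.0165). Cpsf2, a subunit of the cleavage complex, rose by 0.22 and 0.20 (adjusted p = 0.0196 and 0.0300). In Smn1OE, Upf1 rose by 0.25 and the S-phase kinase gene Cdk2 fell by 0.48 (adjusted p = 0.0306 and 0.0457). Each of these calls was lost when certain single libraries were left out.

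Histone chaperones and the variant histones were mostly called lower or not called. Of 14 chaperone and assembly genes none was called in Bap1KO against WT, where 3.36% of all genes were called higher and 6.37% lower. Ipo4, an importin for histones, fell by 0.47 in Smn1OE_K186R and 0.41 in Smn1OE against Bap1KO (adjusted p = 0.00182 and 0.00325). Nasp, an H1- and H3-binding chaperone, was called lower in Smn1OE_K186R, and Rbbp4 and Nap1l1 higher in Smn1OE, calls that were each lost under at least 5 alternatives. Of 11 variant and replication-independent histone genes, 2 were called lower in Bap1KO than in WT, beside 6.37% of all genes. These were the linker gene H1fx at a log2 fold change of -1.34 (SE 0.18, adjusted p = 0.00200) and H2afz, which codes for H2A.Z, at -0.42 (SE 0.09, adjusted p = 0.0151). The H2afz call was lost under 3 alternatives. Against Bap1KO, 6 of the 11 were called lower in Smn1OE_K186R and 5 in Smn1OE, beside 16.5% and 17.7% of all genes. H2afy was called higher in Smn1OE, a call lost under 7 alternatives. H2afv, another H2A.Z gene, fell by 1.07 and 1.15 (adjusted p = 0.00176 and 0.00113), H2afy2 by 0.82 and 0.77 (adjusted p = 0.00296 and 0.00351) and H3f3a, which codes for H3.3, by 0.48 and 0.57 (adjusted p = 0.00754 and 0.00309). The 11 genes summed to 848 CPM in Smn1OE_K186R, 884 in Smn1OE, 1053 in Bap1KO and 1119 in WT.

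Because replication-dependent histone messages normally end without a poly(A) tail, other RNAs without one were read beside them. Of 16 listed gene IDs 1, Rn7sk, had enough reads to test, at 2.55 ± 0.692 CPM in Smn1OE_K186R, 3.13 ± 0.706 in Smn1OE, 0.678 ± 0.113 in Bap1KO and 0.883 ± 0.166 in WT (SD, n = 3 each). It was higher than in Bap1KO by 1.91 in Smn1OE_K186R and 2.20 in Smn1OE on the log2 scale (SE 0.28 each, adjusted p = 0.000933 and 0.000383), and between Bap1KO and WT its log2 fold change was -0.38 (adjusted p = 0.431). Its level moved with the SMN groups, and the part of poly(A)-less RNA in the histone differences was not tested. Members also differ in how far their annotated transcripts run past the stem-loop, by 840 bases in Hist1h1c, 4884 in Hist1h1d, 2010 in Hist1h2ac, 770 in Hist1h4d, 51 in Hist1h3b, 46 in Hist1h4h and 31 in Hist1h4n. Of 20 tested members with 100 bases or more past it, 9 were called higher in Bap1KO than in WT, at a median log2 fold change of 0.63, of 16 with fewer 2 were, at a median of 0.89, and of 11 with no stem-loop matched 1 was, at 0.30. Over all tested genes 3.36% were called higher in Bap1KO than in WT. Against Bap1KO 13 of the 20, 12 of the 16 and 5 of the 11 were called higher in Smn1OE_K186R, and 13, 10 and 5 in Smn1OE. Of all tested genes 16.1% and 15.8% were called higher in these 2 comparisons. This split was chosen with the values known and was not tested.

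The 14 members that were not tested had 11 to 67 reads each over all libraries and summed to 0.972 CPM in Smn1OE_K186R, 0.856 in Smn1OE, 0.363 in Bap1KO and 0.337 in WT. They comprised 7 H2A, 4 H2B, 2 H3 and 1 H1 genes. Hist1h2bl had the most, with 28 reads in Smn1OE_K186R, 23 in Smn1OE, 11 in Bap1KO and 5 in WT. Hist1h3h had 11, 6, 0 and 6 reads in the same groups, at least 1.18-fold higher in Smn1OE_K186R than in Bap1KO against the same floor.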

How the data were processed

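RNA from 12 cultures in 4 groups of 3 was sequenced as paired-end TruSeq libraries on an Illumina HiSeq, per the labels' protocols. The authors deposited raw read counts per gene, 1 table per library, and the submitters' processing notes list, without roles, the aligner STAR 2.6.1, the counter HTSeq 0.9.1, the trimmer cutadapt 1.4.2, CASAVA 1.8.2 and DESeq2, with the build GRCm39. The annotation release, strand setting and poly(A) selection are not given in the sources used here. The 5 closing lines of each table, among them reads in no gene (2.37% to 3.86% of all reads in the table) and reads aligned in several places (5.05% to 5.76%), were kept out of library sizes and tests. Of 55335 gene IDs, 55154 matched GENCODE M21, which was used for names, classes and transcript sequences and has another build than the files, so no coordinates were taken across.

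Counts were fitted over all 12 libraries with edgeR 4.0.16 (R 4.3.3), with TMM scaling, filterByExpr (minimum count 10) and the 2-sided quasi-likelihood test, giving 16597 tested genes, 8 residual degrees of freedom and a common biological coefficient of variation of 0.179. P-values were adjusted over all tested genes by the Benjamini-Hochberg method, and an adjusted p under 0.05 was called. Fold changes are log2 with a prior count of 0.125, levels are TMM-scaled CPM, and errors are the SD over 3 libraries. Floors cover counting error only. The procedure was tested on simulated data. Alternatives were RLE scaling, total-count scaling, no filter, DESeq2 1.42.0, each library left out in turn, media batch as a block, media batch as a random effect in limma 3.58.1 voom (correlation 0.453), and sums without the most abundant members, the last without both Hist1h1c and Hist1h2bc being added after seeing the data.

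The labels give media batches A, B and C to replicates 1, 2 and 3 of Bap1KO and WT, and D, E and F to those of both SMN groups, so same-numbered samples are paired within these. Deviations from the group means correlated at 0.555, 0.712 and 0.494 between Bap1KO and WT and at 0.629, 0.497 and 0.693 between the SMN groups. The members and lists were chosen with earlier results of these data known. Values for every library were given for the member of highest mean level in each class and for up to 6 called members per direction with the largest fold change and a mean of 1 CPM or more in some group. From each list, up to 3 called genes per direction with the smallest adjusted p were named, with Slbp, Npat, Casp8ap2, Lsm10, Lsm11 and Zfp473. Promoters are from RefSeq. The values of 1 S-phase gene that this rule would name are not reported here.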

Additional observations from a re-analysis of the deposited data

How the results depend on the processing

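Counts of histone genes called against Bap1KO and WT kept their direction under the scalings, filter settings, batch models and DESeq2 that were run. With media batch as a block, 21 histone genes were called higher in Bap1KO than in WT (main result 12, and 4 to 13 with single libraries left out) and 35 S-phase genes lower (main result 1). The S-phase count was 4 without a filter, 24 with batch as a random effect, 4 with DESeq2 and 0 to 3 with single libraries left out. Of all genes 6.37% were called lower in the main fit, 17.2% with the block and 4.09% without a filter. Called higher were 3.36% of all genes in the main fit and 11.9% with the block. The block changed no call of a histone gene between Smn1OE_K186R and Smn1OE. With single libraries left out, S-phase genes called lower than in Bap1KO numbered 11 to 39 in Smn1OE_K186R and 11 to 38 in Smn1OE, and histone genes called higher in Smn1OE_K186R 18 to 33. In the same fits 10.2% to 15.9% and 10.8% to 17.4% of all genes were called lower. The share called higher in Smn1OE_K186R was 9.6% to 15.1%. The 1 histone gene called lower in Smn1OE than in WT became 0 without a filter and with the random effect, and 0 to 1 with single libraries left out.

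The log2 ratio of the histone sums depended on Hist1h1c and Hist1h2bc. Without both it was 0.96 for Smn1OE_K186R and 1.04 for Smn1OE against Bap1KO (0.23 and 0.29 with them), 1.77 and 1.86 against WT (0.90 and 0.96), and 0.82 for Bap1KO against WT (0.67). Without Hist1h1c alone it was 0.44 and 0.50 against Bap1KO and 1.10 for Smn1OE against WT, and with total-count scaling 0.37 for Smn1OE against Bap1KO. Of 66 calls of named histone genes 13 were lost under at least 1 alternative and 0 reversed. The lost calls were those of Hist1h2ac, Hist1h2bc, Hist1h3b, Hist1h3d and Hist1h4c in Bap1KO against WT (highest adjusted p up to 0.129), and of Hist1h1e, Hist1h2ad, Hist1h3d, Hist1h4c and Hist1h4m in an SMN group against Bap1KO. The calls of Hist1h2be, Hist1h2bg and Hist1h4i in Bap1KO against WT, which are outside these 66, were also lost when certain single libraries were left out. The cause was not tested.

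Depth limits the rarest members: 14 of 61 were not tested, and DESeq2 gave up to 17 members no adjusted p. Reads that match several histone genes, the unshared media batches, the sex of the cells and the unknown poly(A) selection limit what the SMN comparisons can show. The comparison of Bap1KO with WT is limited too, because the source mice and the hydroxytamoxifen treatment differ along with the deletion.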
